A study of Mus musculus with 3 samples.

Results

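The sites described here are places of open chromatin that were strong in fat cells from inguinal white fat (iWAT) and lay far from every site listed for the other depots. They were chosen from the authors' iWAT list of 63214 DNase I hypersensitive sites. A site had to be among the 15803 with the highest normalized tag count, the top 25%, and no site of the epididymal white fat (eWAT) list or the brown fat (BAT) list could lie within 1 kb of it. That left 379 sites of the 172496 in all 3 lists, 2.40% of the strong iWAT sites. They are called inguinal far sites below. The tag counts and the distance to other depots chose them, so both are given as descriptions only.

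DNase-seq cuts exposed DNA in nuclei with the enzyme DNase I and counts the sequenced ends, called tags. The 3 groups were fat cells grown from iWAT, from eWAT and from BAT, with 1 library each, and the brown fat was pooled from interscapular, cervical and axillary depots. All came from male NMRI mice 4 to 5 weeks old, whose stromal-vascular cells were differentiated in a medium with 10% newborn calf serum, 30 nM insulin and rosiglitazone at 1 µM, an agonist of the receptor PPARγ. Harvest was 8 days after plating, DNase I was applied to nuclei at 120 U/ml, and only cultures with more than 50% differentiation were used. The cells are thus cultures exposed to rosiglitazone in every depot, in which other cells of the stromal-vascular fraction could remain.

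Hypersensitive sites mark DNA where nucleosomes have given way to regulatory proteins, mostly at promoters and enhancers. Promoter sites tend to be shared between cell types, whereas distal sites vary more and often come in groups around genes that define a cell's identity. Inguinal fat is a subcutaneous depot, epididymal fat a visceral one, and brown fat a heat-producing tissue. Positions are given in the mouse build mm9, as the deposited lists give them. Genes and sequence at the sites were not analysed here, because a genome or annotation in mm9 was not used here. The labelled depots were for the same reason not checked against marker genes.

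Each depot had a single library and thus no replicates, and neither depots nor groups of sites were compared by a test. Intervals in parentheses are 95% intervals for counting error over sites, exact (Clopper-Pearson) for shares and from order statistics for medians, and neighbouring sites are not independent. A site missing from a list is not shown to be closed there: every list holds only sites with a tag density at least 4 times that of their surroundings, and tags at unlisted places were not at hand. Fold over surroundings, focus ratio and clonal fold are the authors' values for each site.

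Of the 379 inguinal far sites, 4 lay in the first 3.3 Mb of a chromosome and are set apart. The strongest of them, on chromosome 11 at 3004473 to 3004695, held 157.6 normalized tags, 4.13 times the density of its surroundings. A BAT site with 187.6 normalized tags lay 2470 bp away and an eWAT site with 140.3 lay 2618 bp away. Each list thus held a site with a very high count within 3 kb of this place. The second, on chromosome 11 at 3053947 to 3054169, held 75.9 tags at 5.89-fold, with the nearest eWAT site 19.9 kb away. The third, on chromosome 11 at 3102103 to 3102325, held 27.6 tags at 4.76-fold. The fourth lay on chromosome Y at 1483506 to 1483728, with 22.7 tags at 5.04-fold. No iWAT site of chromosome Y lay beyond 2876672, so that all 58 of them fall in the part set apart. Among the 64 strong iWAT sites in the first 3.3 Mb of any chromosome, these 4 made up 6.25% (1.73 to 15.2). All values below are for the other 375 unless stated.

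The 375 inguinal far sites had a median of 23.6 normalized tags, with a range from 20.7 to 68.0, against 27.6 for the 15424 other strong iWAT sites, those near chromosome starts included. One tag of this library is worth 0.985 normalized tags, so the median far site held 24 tags. They were scarce among the very strongest sites. In the highest 10% of the strong sites by tag count, 7 of 1581 (0.443%, 0.178 to 0.910) were inguinal far sites. These include the sites of ranks 23 and 140, which lay near a chromosome start. In the lowest 10%, 70 of 1580 were (4.43%, 3.47 to 5.56). The limit of the top 25% fell at 20.7 normalized tags, or 21 tags, a count with a Poisson interval of 13.0 to 32.1. It ran through 1507 tied sites, of which 838 were counted as strong in the order of the list. With every tied site left out there were 336 inguinal far sites, and with every tied site counted 422. The last 5 inside the limit had ranks 15696 to 15792 and the next 5 far sites outside it ranks 15835 to 15882, all with 20.7 normalized tags. At the limit of 1 kb, the 5 closest inguinal far sites lay 1006 to 1050 bp from a site of another depot, and the 5 strong sites just within it 955 to 993 bp.

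Inguinal far sites stood out less from their surroundings than other strong sites did, a measure the rule did not use. Their median tag density was 6.21 times that of the surroundings (5.73 to 6.70), against 13.09 (12.98 to 13.25) for the other strong iWAT sites. With the 4 sites near chromosome starts the median was 6.17. Of the 375, 113 stood below 5-fold (30.1%, 25.5 to 35.1), against 2.70% of the other strong sites. Below 6-fold stood 181 (48.3%, 43.1 to 53.5), against 6.88%. At 15-fold or more stood 56 (14.9%, 11.5 to 18.9), against 39.6%. Among sites of nearly the same tag count, from 20.7 to 26.6 normalized tags, the medians were likewise apart: the median was 6.73 (6.17 to 7.81) for 276 inguinal far sites and 11.71 (11.54 to 11.96) for 7064 others.

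**Figure D1:**
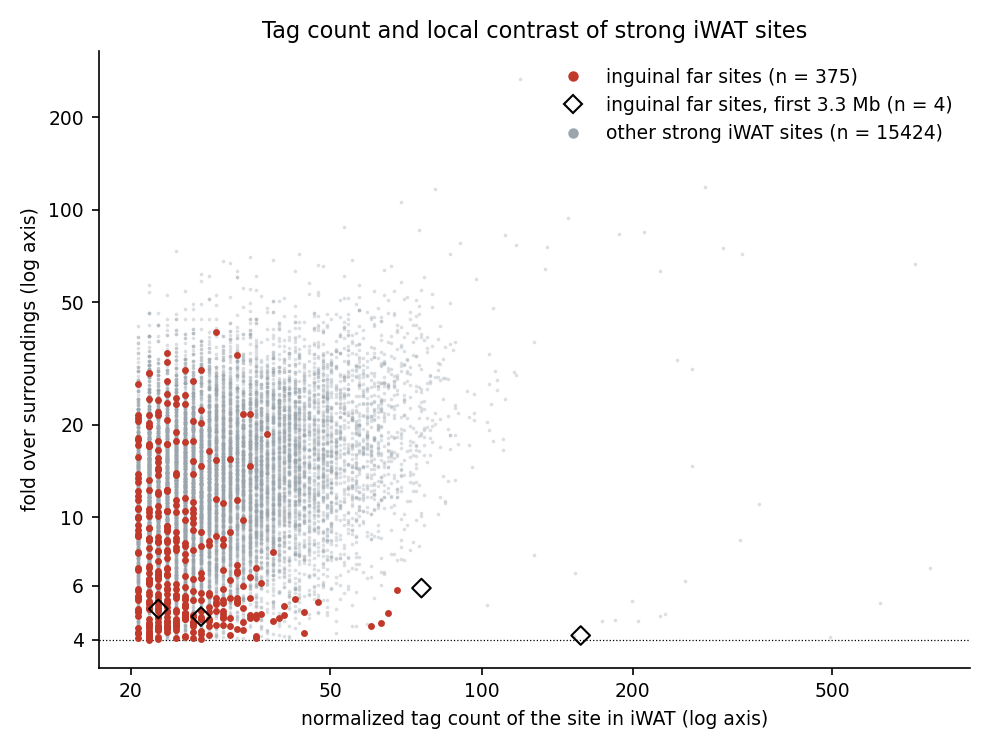
Normalized tag count (horizontal, log axis) against fold over surroundings (vertical, log axis) for each strong iWAT site. Inguinal far sites (red, n = 375) crowd the lower left, with a median of 6.21-fold, while the other strong sites (grey, n = 15424) have a median of 13.09-fold. Diamonds are the 4 far sites in the first 3.3 Mb of a chromosome, and the dotted line is the lowest fold in the list, 4.

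The tags divided by the fold give the level of the surroundings per site width. That level had a median of 3.88 normalized tags (3.52 to 4.24) around inguinal far sites and 2.30 (2.28 to 2.31) around the other strong sites. Over all contrasts, sharpness and duplication differed little, while at like contrast the focus ratio differed more, as given below. The focus ratio, which gauges how tightly tags are centred, had medians of 0.711 (0.702 to 0.723) and 0.703 (0.702 to 0.705), and the clonal fold medians of 0.95 and 0.94.

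The share of far sites also differed by contrast. They made up a much larger share of strong sites at low contrast. Sites near chromosome starts are included in the counts by class. Of the strong iWAT sites from 4- to below 5-fold, 115 of 532 were inguinal far sites (21.6%, 18.2 to 25.4). From 5- to below 6-fold, 70 of 714 were (9.80%, 7.72 to 12.2). From 6- to below 8-fold and from 8- to below 10-fold the shares were 2.90% (2.17 to 3.80) and 2.08% (1.51 to 2.81). From 10- to below 15-fold the share was 45 of 4626 (0.973%), from 15- to below 20-fold 24 of 3100 (0.774%, 0.497 to 1.15), and at 20-fold or more 32 of 3059 (1.05%, 0.717 to 1.47). Shares were thus lower in each class up to 10-fold than in the class before, and from 15-fold upward the intervals overlapped. Among the strong iWAT sites that overlap no site of another depot, the share that lay beyond 1 kb was 51.1% at 4- to below 5-fold, 11.7% at 10- to below 15-fold and 35.2% (32 of 91) at 20-fold or more, so there it was higher again at the top. In eWAT it was 38.7% in the lowest class and 66.7% (8 of 12) in the highest. In BAT the order was the other way, with 55% in the lowest class and 34.4% (11 of 32) in the highest. Whether low-contrast sites had counterparts in other depots that fell under the 4-fold limit of the lists was not tested.

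A fall was also seen when the rule was applied to the other lists. There were 298 strong eWAT sites (1.95%) and 247 strong BAT sites (2.05%) far from other depots. At 4- to below 5-fold, far sites were 21.6% of the strong sites in iWAT, 9.95% (8.08 to 12.1) in eWAT and 20.6% (17.1 to 24.5) in BAT. At 20-fold or more they were 1.05% in iWAT, 1.08% (0.466 to 2.11) in eWAT and 0.596% (0.298 to 1.06) in BAT. Far sites had a median contrast of 6.90 (5.91 to 7.84) in eWAT (296 sites beyond the first 3.3 Mb), against 9.84 for other strong eWAT sites, and of 5.48 (5.18 to 5.88) in BAT, against 12.53. Each list serves in the rule of the others, and the lists differ in length, so these shares stand side by side without a test.

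**Figure D2:**
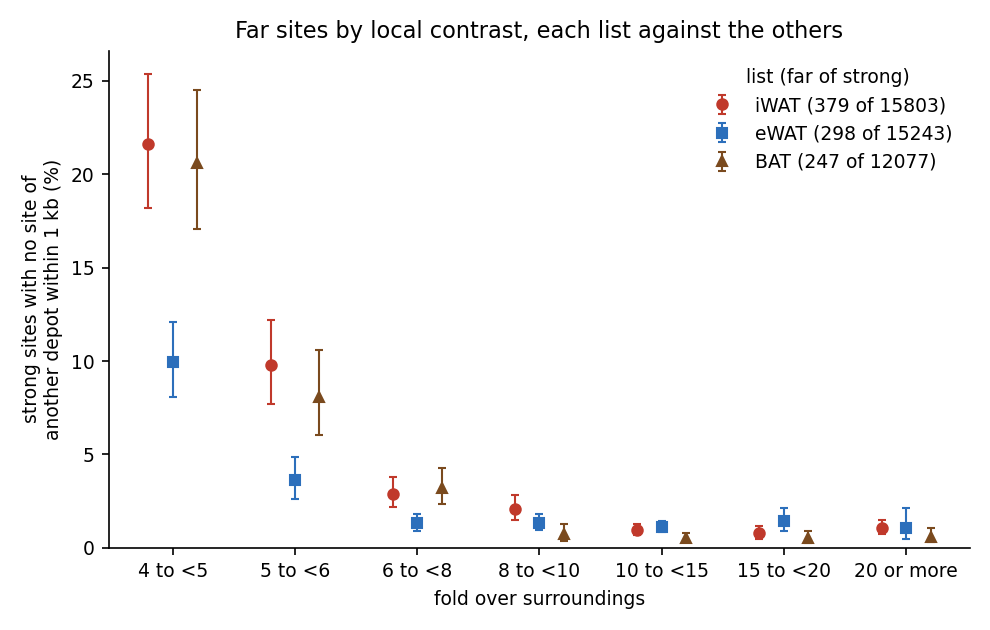
Share of strong sites that have no site of another depot within 1 kb (vertical, in percent), by class of fold over surroundings (horizontal), for iWAT (circles), eWAT (squares) and BAT (triangles). Bars are exact 95% intervals; the iWAT share is 21.6% in the lowest class and 1.05% in the highest.

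Over all contrasts, the inguinal far sites had another iWAT site within 5 to 50 kb more often than the other strong sites did, but at like contrast this order did not hold throughout. Another iWAT site lay within 50 kb of 368 of the 375 (98.1%, 96.2 to 99.2), against 96.7% of the other strong iWAT sites. Within 10 kb the count was 312 of the 375 (83.2%, 79.0 to 86.8), against 68.2%. Within 5 kb the shares were 66.9% (61.9 to 71.7) and 44.1%. Within 1 kb the order was the other way round, with 21 of 375 (5.60%, 3.50 to 8.43) against 16.5%. An iWAT neighbour that overlaps a site of another depot is mostly kept out of that nearest range by the rule. The median distance to the nearest other iWAT site was 3.40 kb (3.07 to 3.77) for the far sites and 5.87 kb (5.75 to 6.01) for the others.

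Low-contrast sites were the more crowded in both sets, and the far sites held more of them. The fold is taken against the surroundings, where tags of nearby sites can count, so contrast and crowding are not independent measures. Below 6-fold, another iWAT site lay within 5 kb of 81.2% (74.8 to 86.6) of the far sites and 87.9% (85.8 to 89.8) of the others. From 6- to below 15-fold the shares were 72.5% (64.2 to 79.7) and 59.3% (58.2 to 60.3). At 15-fold or more they were 7.14% (1.98 to 17.3) and 16.0% (15.1 to 17.0), and within 10 kb 33.9% (21.8 to 47.8) and 47.9% (46.7 to 49.2). The far sites were thus the more crowded in the middle class, and had the lower share in the classes on either side, where the intervals overlapped. The limit that the rule sets on neighbours within 1 kb bears on these shares too.

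The nearest iWAT neighbour was strong for 235 of the far sites (62.7%, 57.6 to 67.6), against 37.1% (36.3 to 37.8) of the other strong sites. It was listed in both other depots for 166 (44.3%, 39.2 to 49.5), against 40.4%, in 1 other depot for 94 (25.1%, 20.8 to 29.8), against 29.9%, and in neither for 115 (30.7%, 26.0 to 35.6), against 29.7%. Over all contrasts, the sets thus differed more in the strength of the neighbour than in its listing in other depots. The strength of the neighbour at like contrast was not computed. The rule, which mostly keeps shared neighbours out of the nearest 1 kb, bears on the listing.

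Sites of other depots were also close at hand outside the limit. The nearest one lay at a median of 3.10 kb (2.83 to 3.50). It lay 1 to 2 kb away in 103 cases, 2 to 5 kb in 154, 5 to 10 kb in 42, 10 to 20 kb in 36, 20 to 50 kb in 27 and beyond 50 kb in 13. The nearest site belonged to eWAT in 176 cases and to BAT in 197, with 2 ties. Within 50 kb the far sites had a median of 6 other iWAT sites, 5 eWAT sites and 5 BAT sites, and the other strong sites 5, 6 and 5, overlapping sites of the other depots included.

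Grouping the 375 by contrast, with limits of 6 and 15 chosen after the values were seen, separated crowded sites from more widely spaced ones. Part of that split can follow from the measure, since tags of nearby sites can enter the surroundings. The 181 low-contrast sites (below 6-fold) lay a median of 2.74 kb (2.40 to 3.11) from another iWAT site and 2.48 kb (2.23 to 2.80) from a site of another depot. Of these 181, 91 had a strong iWAT site that is listed in all 3 depots within 5 kb (50.3%, 42.8 to 57.8). The other strong sites of the same contrast were much alike in this, with 48.1% (45.0 to 51.1). Over all the other strong sites the share was 13.7%. The nearest eWAT site was strong in its own list for 148 of the 181 (81.8%, 75.4 to 87.1). For the nearest BAT site the count was 138 (76.2%, 69.4 to 82.2). These 2 shares were not computed for the other strong sites.

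The 56 high-contrast sites (15-fold or more) lay a median of 13.8 kb (10.4 to 19.2) from another iWAT site and 13.2 kb (10.5 to 20.1) from a site of another depot. None of the 56 had a strong site of all 3 depots within 5 kb, which allows a share of up to 5.36% by the limit of 3 sites of the total (6.38% by the exact interval), against 1.59% of the other strong sites at that contrast. The nearest eWAT site was strong in 13 of the 56 (23.2%, 13.0 to 36.4), and the nearest BAT site in 14 (25.0%, 14.4 to 38.4). Both shares are near the 25% of each list that is strong by definition. The 138 sites from 6- to below 15-fold lay between, at 3.33 kb (2.72 to 3.89) from another iWAT site and 3.33 kb (2.77 to 3.81) from another depot. The same relation of contrast to spacing held among the other strong sites, whose nearest iWAT neighbour lay at a median of 1.72 kb (1.51 to 1.94) below 6-fold, 3.66 kb (3.55 to 3.80) from 6- to below 15-fold and 10.5 kb (10.2 to 10.8) at 15-fold or more. Below 6-fold the far sites had the larger median distance to another iWAT site, and in the upper classes the intervals overlapped. The rule builds in part of the gap below 6-fold. It mostly keeps iWAT neighbours that overlap a site of another depot out of the nearest 1 kb. In that class another iWAT site lay within 1 kb of 4.42% (1.93 to 8.52) of the far sites and 33.9% (31.1 to 36.9) of the others. Median tag counts were alike in the classes: those of the inguinal far sites were 24.6, 23.6 and 23.6 normalized tags from low to high contrast. The largest counts were less alike, at 68.0, 38.4 and 37.4. The focus ratio of the far sites had medians of 0.696 (0.683 to 0.714), 0.709 (0.698 to 0.730) and 0.750 (0.722 to 0.776). For the other strong sites the medians were 0.654 (0.649 to 0.660), 0.681 (0.678 to 0.683) and 0.742 (0.739 to 0.744). The far sites thus had the higher focus ratio below 15-fold, and at 15-fold or more the intervals overlapped.

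**Figure D3:**
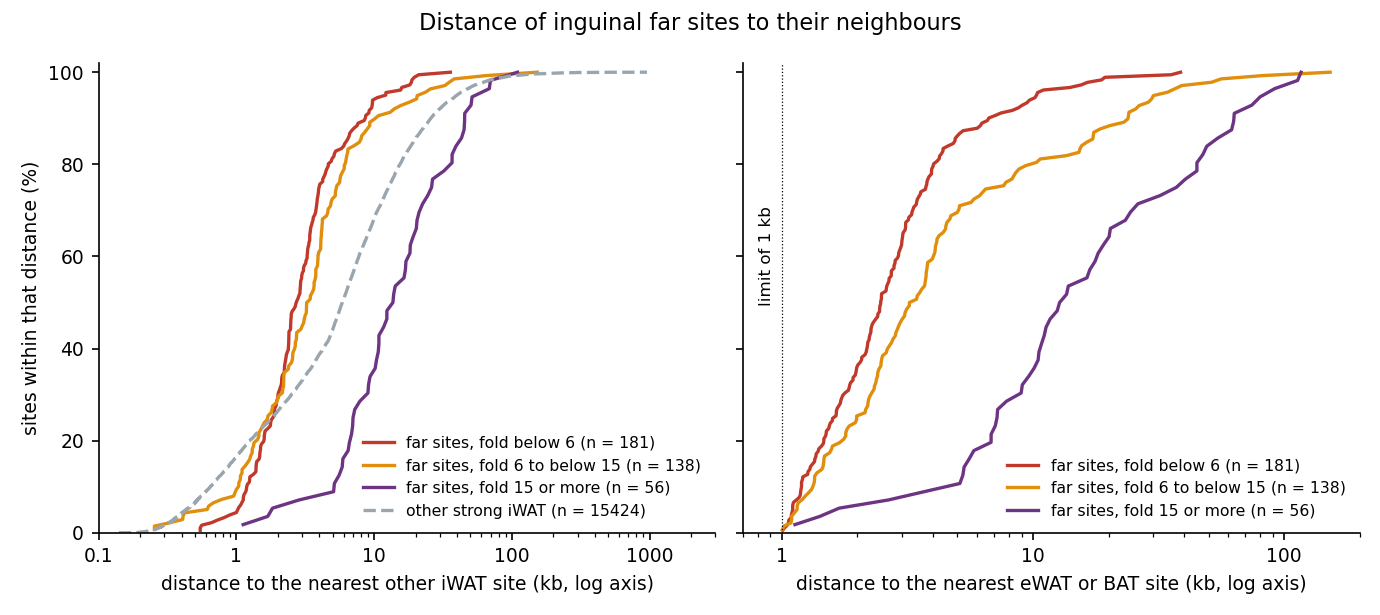
Cumulative share of sites (vertical, in percent) by distance on a log axis to the nearest other iWAT site (left) and to the nearest eWAT or BAT site (right). The curve of the 56 inguinal far sites at 15-fold or more lies to the right of those of the 181 below 6-fold and the 138 between, with medians of 13.8, 2.74 and 3.33 kb in the left panel. The dashed curve shows the other strong iWAT sites.

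The 10 inguinal far sites with the highest tag count all belonged to the low-contrast group. The first, on chromosome 16 at 77594179 to 77594401, had a count of 68.0 (69 tags, Poisson interval 53.7 to 87.3) at 5.81-fold. Its nearest iWAT site, 6.47 kb away, was weak, with 8.87 normalized tags. On the other side, eWAT and BAT sites with 17.2 and 18.0 normalized tags lay 8.27 and 8.64 kb away, each on its own library's scale. A strong iWAT site with 30.5 normalized tags lay close to these eWAT and BAT sites. Between centres it was 8.82 kb from the far site, against 8.49 kb (eWAT) and 8.86 kb (BAT). The second, on chromosome 16 at 23982576 to 23982798, held 65.0 at 4.89-fold and had no other iWAT site within 10 kb. The third, on chromosome 3 at 5210113 to 5210335, held 63.0 at 4.55-fold, with BAT and eWAT sites 18.8 and 25.3 kb away.

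These 3 and the fourth, on chromosome 19 at 5802454 to 5802676 with 60.1 normalized tags at 4.43-fold, stood clear of the rest by tag count. Their surroundings were rich, at 11.7 to 13.8 normalized tags per site width, where the median far site had 3.88. The fifth, on chromosome 9 at 69303256 to 69303478, held 47.3 at 5.31-fold. It lay 2498 bp from an iWAT site with 74.9 normalized tags, and strong eWAT and BAT sites (39.2 and 52.2) lay 2476 and 2503 bp away, so it sat beside a place listed in all depots. On chromosome 11 at 68872793 to 68873015 the picture was alike, with 40.4 at 5.17-fold and sites of 72.9 (iWAT), 40.4 (eWAT) and 48.8 (BAT) 3.20 to 3.26 kb away.

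The others of the 10 were chromosome 1 at 45366145 to 45366367 (44.3 normalized tags, 4.91-fold), chromosome 3 at 96361859 to 96362081 (44.3, 4.21-fold) and at 96301583 to 96301805 (40.4, 4.80-fold), and chromosome 6 at 129162656 to 129162878 (42.4, 5.44-fold). The chromosome 3 pair lay in 1 stretch of 60.5 kb that held 7 iWAT sites against 2 eWAT and 2 BAT sites.

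The 10 with the highest contrast looked different: moderate counts over nearly empty surroundings. The first, on chromosome 18 at 61170115 to 61170337, had a count of 29.6 (30 tags, 20.2 to 42.8) at 40.04-fold. A weak eWAT site of 6.54 lay 9.07 kb away and the nearest BAT site 17.2 kb. On chromosome 7 at 118718810 to 118719032 a site of 23.6 normalized tags stood at 34.1-fold, with the closest site of any list 26.1 kb away. On chromosome 1 at 12868072 to 12868294 a site of 32.5 stood at 33.8-fold, and the nearest BAT and eWAT sites lay 12.8 and 13.5 kb away.

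A site on chromosome 2 at 105248898 to 105249120 held 23.6 normalized tags at 32.03-fold, 8.97 kb from the nearest eWAT site. Those on chromosome 14 at 23428605 to 23428827 (25.6, 30.1-fold) and chromosome 13 at 53278647 to 53278869 (27.6, 30.1-fold) also passed 30-fold. The remaining 4, on chromosomes 3, 19, 13 and 12, ranged from 27.7- to 29.4-fold. That on chromosome 12 at 81699741 to 81699963 had 26.6 normalized tags, and the nearest site of each list lay 44.9 to 45.0 kb away with 86.7 (iWAT), 45.8 (eWAT) and 63.4 (BAT) normalized tags.

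The 10 farthest from any site of another depot lay 61.8 to 152.5 kb from it, and 9 of them stood at 13.8-fold or more. The most remote, on chromosome 2 at 67017501 to 67017723, held 20.7 normalized tags, the limit of the rule, at 13.8-fold. The nearest site of every list was 152.5 kb away, and it was the only iWAT site in 369.5 kb free of eWAT and BAT sites. The next, on chromosome 9 at 53909717 to 53909939, held 26.6 at 20.5-fold and was 116.7 kb from a weak eWAT site of 5.95. On chromosome 3 at 29343818 to 29344040 a site of 20.7 at 17.1-fold was 113.1 kb from the nearest eWAT site and 244.2 kb from the nearest BAT site. On chromosome 10 at 116984327 to 116984549 a site of 22.7 at 24.1-fold was 91.7 kb from eWAT. The exception in contrast lay on chromosome 6 at 78340715 to 78340937, with 27.6 at 8.94-fold, and a second iWAT site of 15.8 normalized tags only 1203 bp away.

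**Figure D4:**
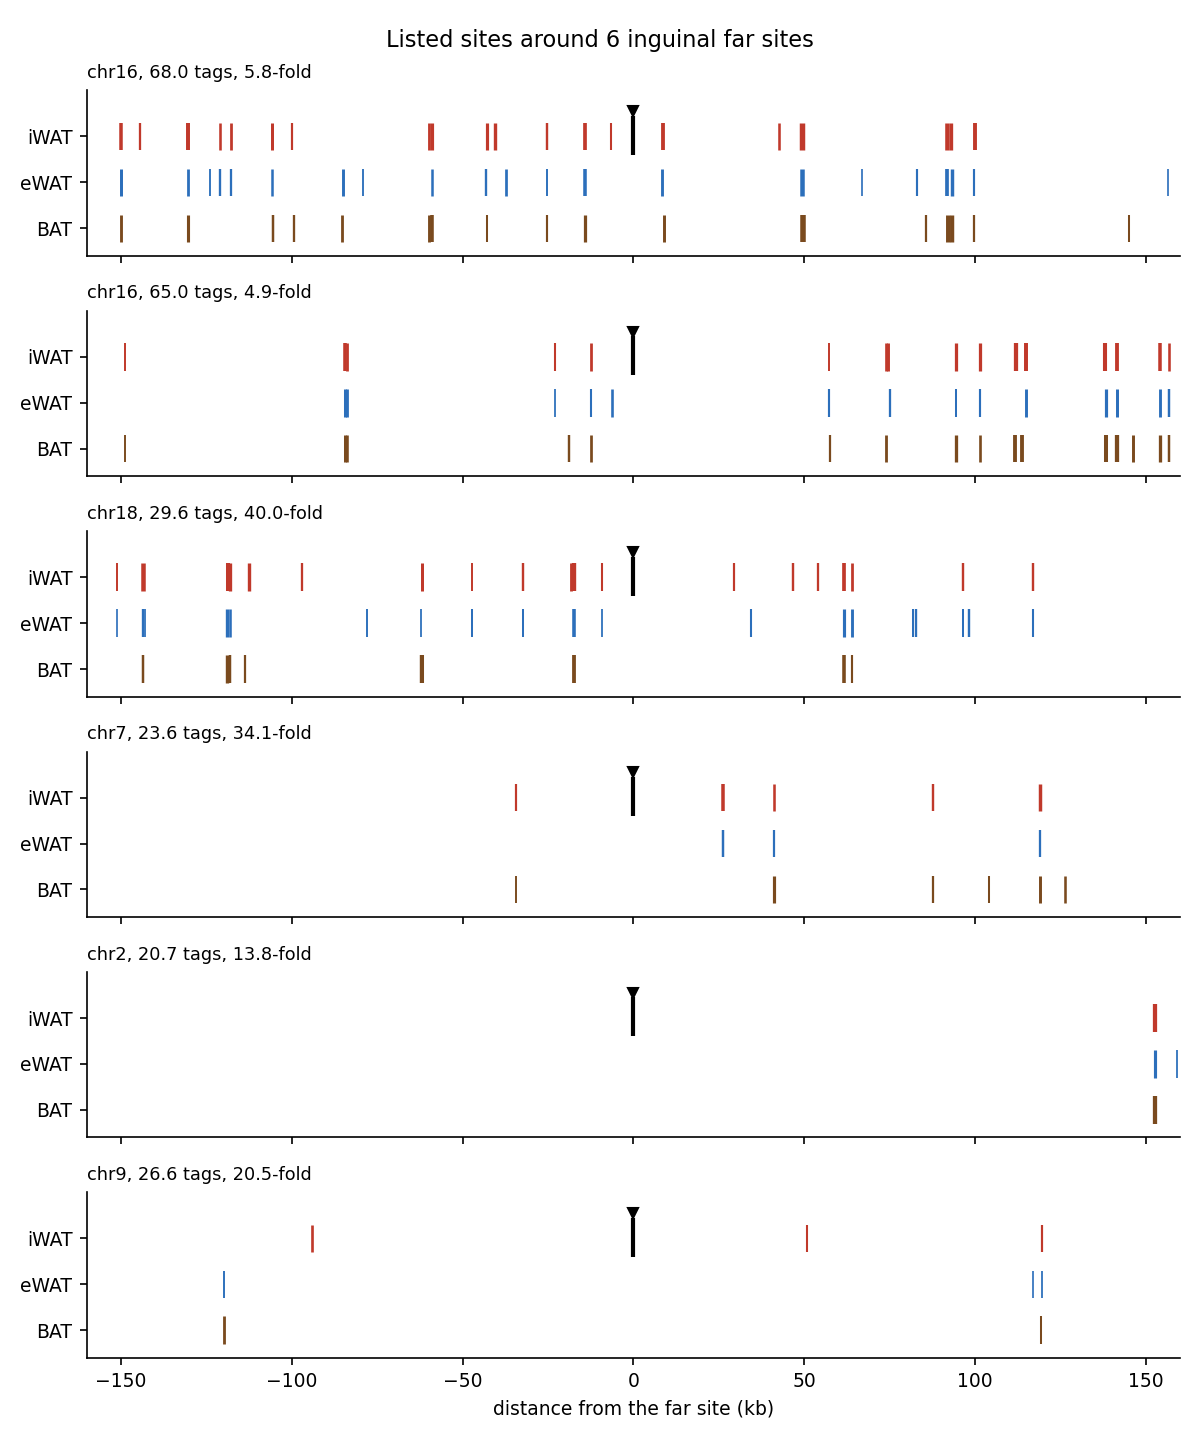
Sites of the iWAT, eWAT and BAT lists around 6 inguinal far sites (black, with an arrowhead), by distance from the far site in kb: the pair with the most tags, the pair with the highest fold and the pair farthest from other depots. Line width grows with the square root of the normalized tag count of each list's own library. The far sites of 68.0 and 65.0 normalized tags lie among sites of all lists, while the site on chromosome 2 has no site of any list within 152 kb.

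Between the flanking sites of other depots, each inguinal far site lies in a stretch that only iWAT sites occupy. These stretches had a median length of 19.4 kb (16.2 to 23.6). The far site was the only iWAT site there in 219 cases (58.4%, 53.2 to 63.4), 1 of 2 in 98, and 1 of 3 or more in 58. The stretch with the most iWAT sites lay on chromosome 7 from 90350588 to 90455567: 9 iWAT sites in 105.0 kb, of which 1 was strong, with 7.88 to 20.7 normalized tags. Stretches with 7 lay on chromosome 16 from 29629396 to 29728840 (99.4 kb) and on chromosome 12 from 95491749 to 95654254 (162.5 kb), and each held 2 inguinal far sites. On chromosome 6 from 78258277 to 78850060, 6 iWAT sites lay in 591.8 kb with no site of another depot. In these 4 stretches most iWAT sites were weak, and the largest count was 27.6.

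Most inguinal far sites had no other one nearby. Another one lay within 10 kb of 20 (5.33%, 3.29 to 8.12), whereas 2.11% (1.89 to 2.35) of the other strong sites had a far site that close. Within 100 kb the shares were 57 of 375 (15.2%, 11.7 to 19.2) and 8.63% (8.19 to 9.08). Chained at 100 kb, these 57 formed 24 pairs and 3 runs of 3. A run on chromosome 13 from 23618186 to 23673406 had members of 25.6, 36.4 and 27.6 normalized tags at 4.67-, 4.86- and 5.39-fold. Its 3 sites had 16 to 19 other iWAT sites within 50 kb, the most of any along with a pair on chromosome 8, beside 13 to 15 eWAT and 14 BAT sites. A run on chromosome 8 from 71517373 to 71613876 had 25.6, 34.5 and 27.6 normalized tags at 4.87-, 6.40- and 8.06-fold, and between its ends lay 11 sites of iWAT, 8 of eWAT and 7 of BAT. The last, on chromosome 11 from 81833103 to 81859126, had 22.7, 23.6 and 28.6 at 7.24-, 4.37- and 5.60-fold. Within its 26.0 kb lay 7 sites of iWAT, 2 of eWAT and 3 of BAT.

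The tightest pairs lay on chromosome 12 at 95521421 to 95522119 (21.7 and 21.7 normalized tags) and on chromosome 4 at 133229211 to 133230201 (21.7 and 24.6, in order of size). A pair on chromosome 5 from 45313666 to 45369830 was the only one of the 27 with all sites above 15-fold, at 15.5- and 24.5-fold, and held counts of 24.6 and 31.5, each given in order of size. Its 56.2 kb held 3 iWAT sites and no eWAT or BAT site. A pair on chromosome 6 from 65919347 to 65941918 likewise had counts of 24.6 and 37.4 and contrasts of 8.95- and 18.6-fold. Within 50 kb of it lay 1 further iWAT site and 1 eWAT site, and no BAT site was listed. Since a run is built from inguinal far sites, more iWAT than eWAT or BAT sites in it follows in part from the choice. In 22 of the 27 runs iWAT had the most sites within 50 kb.

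By chromosome the sites were spread widely. Sites tied at 20.7 normalized tags stand in chromosome order in the list, and those counted as strong all lay on chromosomes 1 to 10, so only the 14965 sites above that count, with 336 inguinal far sites (the 4 near chromosome starts included), were compared by chromosome. The share of strong sites was 2.25% (2.01 to 2.50) overall. On the autosomes it ran from 1.27% on chromosome 15 (9 of 711, 0.580 to 2.39) to 3.02% on chromosome 13 (25 of 827, 1.97 to 4.43), and every autosome's interval held the overall share. On chromosome X there was none among 177 strong sites, which allows a share of up to 1.69% by the limit of 3 sites of the total (2.06% by the exact interval). With all tied sites counted, 1 of 192 on chromosome X was a far site. On chromosome Y it was 1 of 22.

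**Figure D5:**
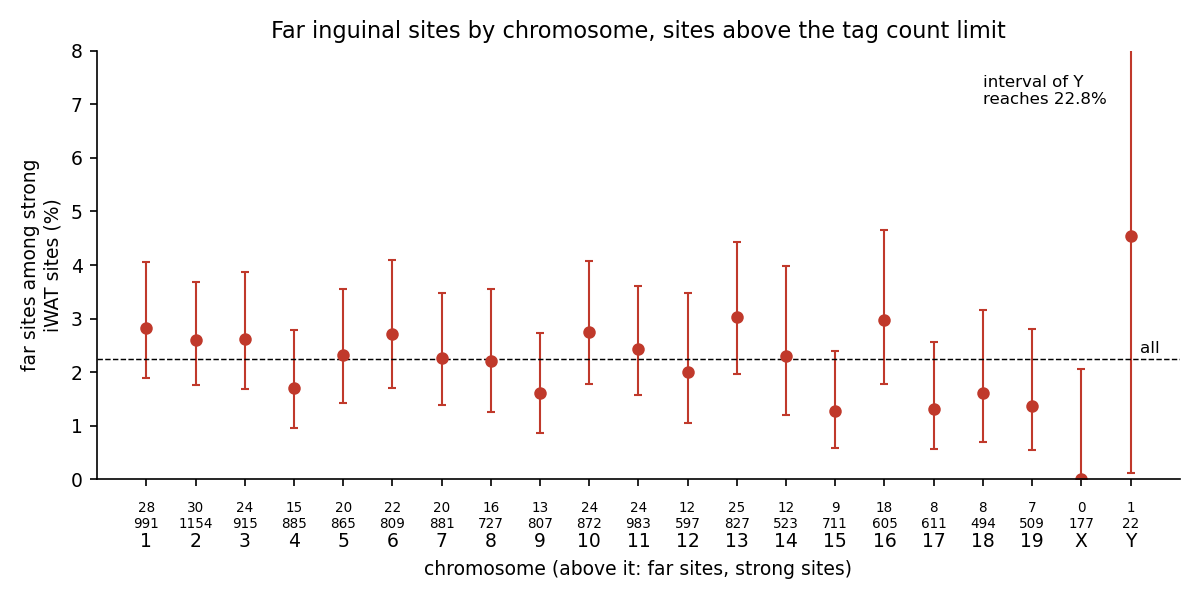
Share of strong iWAT sites above 20.7 normalized tags that are inguinal far sites (vertical, in percent), by chromosome, with exact 95% intervals. The numbers under each point are far sites and strong sites, and the dashed line is the share over all chromosomes, 2.25%; chromosome X has 0 of 177, and the interval of chromosome Y runs past the axis to 22.8%.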

How the data were processed

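The authors deposited 1 list of DNase I hypersensitive sites per depot, in mm9 per the submitters' processing notes, which name STAR and HOMER without roles, versions or settings. Per the file headers each site has a normalized tag count, treated as a signal relative to a library total the sources used here do not give. The deposited lists also hold a whole-number peak score, a focus ratio (a fraction), a fold (ratio) over the surroundings with its p-value, and a clonal fold. The total depth of each library is unknown. Of the iWAT counts, 99.9% were whole multiples of 0.985 within 0.05 (0.005 below 10).

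Distances are gaps between site edges. Ties in tag count kept the deposited order. The selection code was tested on simulated data. Python 3.11.15, numpy 2.4.6, pandas 2.3.3, scipy 1.17.1 and matplotlib 3.10.9 were used. Members, groups and lists were chosen with earlier results of these data known. The sites named are the 10 highest by tag count, by fold and by distance, those at the limits and near chromosome starts, runs of at least 3, and the 5 with the most iWAT neighbours; single pairs and stretches were chosen after their values were seen. Gene lists and markers needed an mm9 annotation and were not analysed here. Alternatives for distance, strength, list length and chromosomes are given in the closing section.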

Additional observations from a re-analysis of the deposited data

How the results depend on the processing

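No paired analysis was possible because each depot has 1 library. With a distance limit of 0.5 kb the median distance to another depot was 2.49 kb. With 2 kb it was 4.18 kb, and 78.3% of the sites had another iWAT site within 10 kb. With the top 10% by tag count as strong, there were 63 sites, with a median contrast of 5.29-fold, 90.2% with an iWAT site within 10 kb and 3.17% in the first 3.3 Mb. Ranking by fold instead of tag count, which selects for contrast, gave 2310 sites with a median of 16.8-fold, 24.3% with an iWAT site within 10 kb, 0.0433% in the first 3.3 Mb and a median distance of 17.4 kb. With lists of equal length, each cut to its top 48308 sites by tag count, there were 242 sites. The set of strong iWAT sites was smaller in that setting too. In all, 36 of 49 recomputed values, among them all those with distances between centres, ranking by peak score or autosomes only, stayed within the interval of the reported value or, for the number of sites, within 1.5 times. They include the settings in which all or none of the sites tied at the limit counted, which were added after seeing the data. With autosomes only, the share in the first 3.3 Mb has no value. Tag counts near 21 and the missing tag counts at unlisted places limit the selection.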

Other observations

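Strong sites far from the other depots were also set beside those of the other lists, over all contrasts. Shares at like contrast were not computed. A strong eWAT site that is far from iWAT and BAT sites lay within 10 kb of 10 inguinal far sites (2.67%, exact 95% interval 1.29 to 4.85) and within 50 kb of 21 (5.60%, 3.50 to 8.43). Of the other strong iWAT sites, 1.33% (1.15 to 1.52) and 3.38% (3.10 to 3.68) had one at these distances. The intervals overlapped at both distances. A strong BAT site that is far from iWAT and eWAT sites lay within 10 kb of 16 (4.27%, 2.46 to 6.84) and within 50 kb of 28 (7.47%, 5.02 to 10.6), against 1.41% (1.23 to 1.61) and 3.81% (3.52 to 4.13) of the other strong iWAT sites.

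Strong iWAT sites that overlap no site of another depot but have one within 1 kb, 1124 in number, lay between the inguinal far sites and the overlapping strong sites in contrast. The medians were 6.21-fold for the far sites (5.73 to 6.70), 9.45-fold for those with a neighbour within 1 kb (9.18 to 10.03) and 13.44-fold for the 14300 overlapping sites (13.27 to 13.57). The focus ratio did not follow that order, at 0.711 (0.702 to 0.723), 0.655 (0.649 to 0.659) and 0.707 (0.706 to 0.709).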
